A study of Mus musculus with 6 samples.

Results

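Interferon-stimulated genes are the genes whose transcription rises when a cell senses interferon, and 40 of them were followed here through gastrocnemius muscles that carried either a constitutively active aryl hydrocarbon receptor or a fluorescent control protein. The 40 genes were taken by their symbols from a count table of 49315 genes, and all 40 were found in it. They comprised 28 genes of the kind usually linked to type I interferon and 8 GTPases of the kind usually linked to interferon-gamma. The other 4 were transcription factors that act in these branches. The 28 type I-like genes were further divided into 23 antiviral effectors and 5 nucleic acid sensors.

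The muscles came from male C57BL6J mice that received an adeno-associated virus in the gastrocnemius at 5 months of age and were taken 5 months later. Muscles labelled AAV9-HSA-CAAHR (n = 3) received a vector coding for a mouse aryl hydrocarbon receptor (AHR) without its ligand-binding domain, which is active without ligand. Muscles labelled AAV9-HSA-GFP (n = 3) received the same type of vector coding for the green fluorescent protein ZsGreen1, so virus was present in both groups. The human skeletal actin (HSA) promoter restricts both proteins to muscle fibres, whereas the RNA was taken from whole muscle, so that transcripts of vessels, connective tissue and leukocytes were counted too. No muscle without virus was analysed here, so genes are said to fall or rise only relative to the GFP muscles. The paper reports quantitative PCR in which selected immune genes were not lower in CAAHR muscles than in mice without virus. It proposes that the GFP vector causes a local immune response, which was not tested here. The labels do not state that each library came from a separate animal, and the p-values measure the spread between these samples.

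Libraries held between 43432994 and 58825752 counts. Ahr, whose counts include the transgene, was 9.96, 22.8 and 17.3 counts per 1000000 (CPM) in CAAHR replicates 31, 34 and 36 and 2.46, 2.55 and 1.87 CPM in GFP replicates 42, 43 and 46, and it was higher by 2.87 ± 0.31 on the log2 scale (SE; adjusted p = 0.00229, quasi-likelihood test of edgeR, Benjamini-Hochberg adjustment). Fast-fibre markers, which define most of this muscle, summed to between 130157 and 212231 CPM, so the labelled tissue was present in every library. CAAHR replicate 34 stood apart from its group with 645 CPM of slow-fibre markers against 2770 and 2506 CPM in replicates 31 and 36. The sums of these markers in GFP replicates 42, 43 and 46 were lower than in every CAAHR library, at 226, 331 and 459 CPM. GFP replicate 43 stood apart from its own with 37.7 CPM of pan-leukocyte markers against 13.3 and 20.6 CPM in replicates 42 and 46.

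Type I interferons bind the receptor pair Ifnar1 and Ifnar2 and activate a complex that contains Stat2 and Irf9 and binds a DNA element called the interferon-stimulated response element (ISRE). Interferon-gamma binds Ifngr1 and Ifngr2, and its signal ends on an element called the gamma-activated site (GAS). The proteins made in response degrade or edit viral nucleic acid, block viral entry and release, and attack vacuoles that hold microbes. In muscle, an interferon response is best known from inflammatory myopathies.

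The ISRE and GAS cores were looked for in the promoters of the members, since both branches of the pathway end on them. RefSeq promoters (GRCm38.p6, 250 bases before to 50 bases after the start) were on hand for 29 of the 40 members; Dhx58, Gbp4, Ifi204, Ifi27l2a, Iigp1, Mx1, Mx2, Oas2, Rtp4, Usp18 and Zbp1 had no entry. The ISRE core was searched on both strands as GAAA, 2 bases of any kind and GAAA, and neighbouring matches may overlap. The GAS core was searched as TTC, 3 bases of any kind and GAA, a pattern that reads the same on both strands. The letters of the first were found in 18 of 29 members (62.1%), against 3.99% of all 27025 genes with a promoter. The GAS letters were found in 10 of 29 members (34.5%), against 9.55% of all genes, and both cores stood together in 6 members (20.7%) against 0.614%. A match describes the letters and is neither a binding site nor a cause.

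Every GTPase with an entry, 6 of 6, held the ISRE core, and Gbp7, Igtp and Irgm2 held the GAS core as well. Of the 19 type I-like members with an entry, 11 held the ISRE core (57.9%) and 6 the GAS core (31.6%). Among the transcription factors, Stat2 held the ISRE core and Irf1 the GAS core. The 27 ISRE matches began between 222 bases before the start and 33 bases after it, and 22 of them lay within the 160 bases before the start. The windows below are examples, from members that passed the test in the results that follow and from members that did not. Capitals mark the ISRE and GAS letters, and each runs 5′ to 3′ on the strand of the gene. The first pair belongs to neighbouring GTPase genes, Igtp (chr11:58199491-58199551, plus strand) and Irgm2 (chr11:58214882-58214942, plus strand), in which a GAS core is followed 11 bases further on by an ISRE core.
Igtp: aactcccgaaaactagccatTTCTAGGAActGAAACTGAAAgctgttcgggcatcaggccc
Irgm2: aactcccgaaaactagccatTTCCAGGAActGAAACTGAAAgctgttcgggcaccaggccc
These windows were identical at 59 of 61 positions. The next are from the GTPase genes Irgm1 (chr11:48871415-48871470, minus strand), Gbp3 (chr3:142559979-142560034, plus strand) and Gbp2 (chr3:142620584-142620633, plus strand), of which Irgm1 and Gbp3 hold 2 overlapping ISRE cores.
Irgm1: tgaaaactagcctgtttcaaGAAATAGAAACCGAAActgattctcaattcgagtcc
Gbp3: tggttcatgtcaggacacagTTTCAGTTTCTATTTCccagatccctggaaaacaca
Gbp2: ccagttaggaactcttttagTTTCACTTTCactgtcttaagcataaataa
For the type I-like genes, Isg15 (chr4:156200855-156200916, minus strand) holds 3 overlapping ISRE cores, Bst2 (chr8:71537567-71537628, minus strand) has a GAS core running into its ISRE cores, and Ifit3 (chr19:34583353-34583436, plus strand) has 2 separate ones.
Isg15: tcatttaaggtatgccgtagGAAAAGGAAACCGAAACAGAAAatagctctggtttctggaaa
Bst2: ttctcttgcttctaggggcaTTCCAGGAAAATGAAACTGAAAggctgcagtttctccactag
Ifit3: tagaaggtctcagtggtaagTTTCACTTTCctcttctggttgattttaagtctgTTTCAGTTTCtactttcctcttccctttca
The last pair holds a GAS core and no ISRE core, in Irf1 (chr11:53769904-53769952, plus strand) and Samhd1 (chr2:157135303-157135346, minus strand).
Irf1: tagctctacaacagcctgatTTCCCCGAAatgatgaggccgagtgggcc
Samhd1: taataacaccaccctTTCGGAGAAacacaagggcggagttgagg

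**Figure D1:**
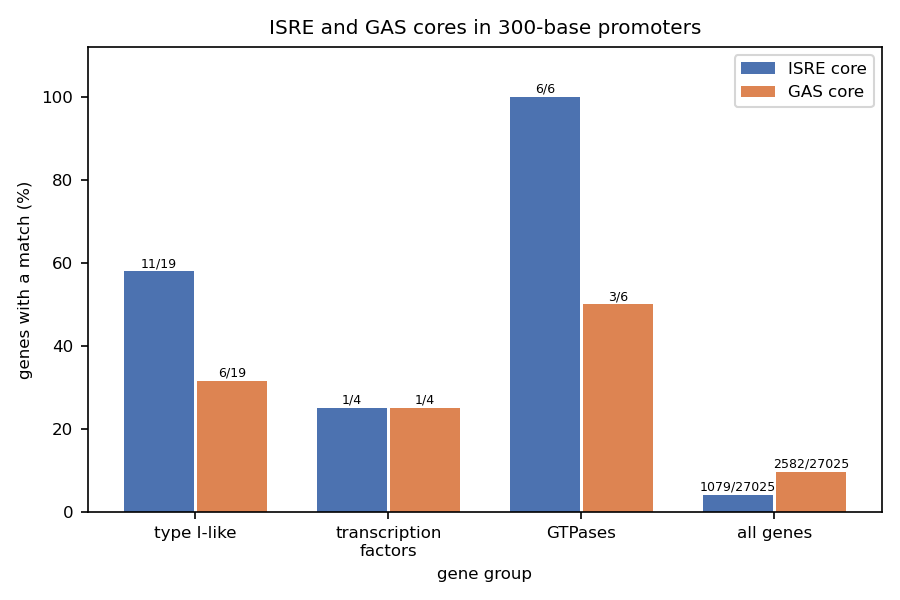
Share of genes (%, vertical axis) whose 300-base RefSeq promoter holds the ISRE core (blue) or the GAS core (orange), for each member group and for all genes with a promoter; the numbers on the bars are genes with a match over genes with a promoter. The ISRE bar stands at 100% for the GTPases, 57.9% for the type I-like genes and 3.99% for all genes.

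Several of the interferon-stimulated genes were lower in AAV9-HSA-CAAHR than in AAV9-HSA-GFP muscles, and the fitted change was below 0 for nearly all of them. Of the 38 members with enough counts to test, 10 fell and 0 rose at an adjusted p under 0.05 (26.3% of those tested), against 4.57% of all 15847 genes tested that fell and 3.04% that rose. Ifih1, Zbp1, Ifi204, Samhd1, Ifi27l2a, Lgals3bp, Ifit3, Bst2, Irf1 and Irgm1 made up the 10. At an unadjusted p under 0.05, 23 of 38 were lower, against 12.6% of all genes, and none was higher. The fitted log2 fold change was below 0 for 37 of 38 members with a median of -0.77, against 0.01 over all genes tested. All 3 CAAHR libraries lay below all 3 GFP libraries for 22 of 38 members, against 14.9% of all genes tested. Passing the filter on low counts depended on the GFP libraries for 4 of the 38, namely Oas1a, Ifi44, Mx2 and Zbp1. These 4 therefore add no support to the counts above, and this includes the call of Zbp1.

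Single libraries carried much of this pattern. GFP replicate 43 was the highest of the 6 libraries for 34 of 38 members (89.5%), against 15.7% of all genes tested. CAAHR replicate 34 was the lowest for 28 of 38 members (73.7%), against 18.9% of all genes. Without GFP replicate 43, 5 members fell, against 2.75% of all genes. Leaving out CAAHR replicate 31, 34 or 36 gave 2, 7 and 3 members that fell, against 2.34%, 5.51% and 2.01% of all genes. Leaving out GFP replicate 42 or 46 gave 8 and 6 members, against 3.38% and 2.31%. Samhd1 and Ifih1 were among them in all 6 of these fits. The count also moved with the method, to 6 with scaling by library size only (3.79% of all genes), 19 with no filter on low counts (5.06%), 17 with the DESeq2 test (7.28%) and 6 with limma-voom (4.8%), all of them lower.

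**Figure D2:**
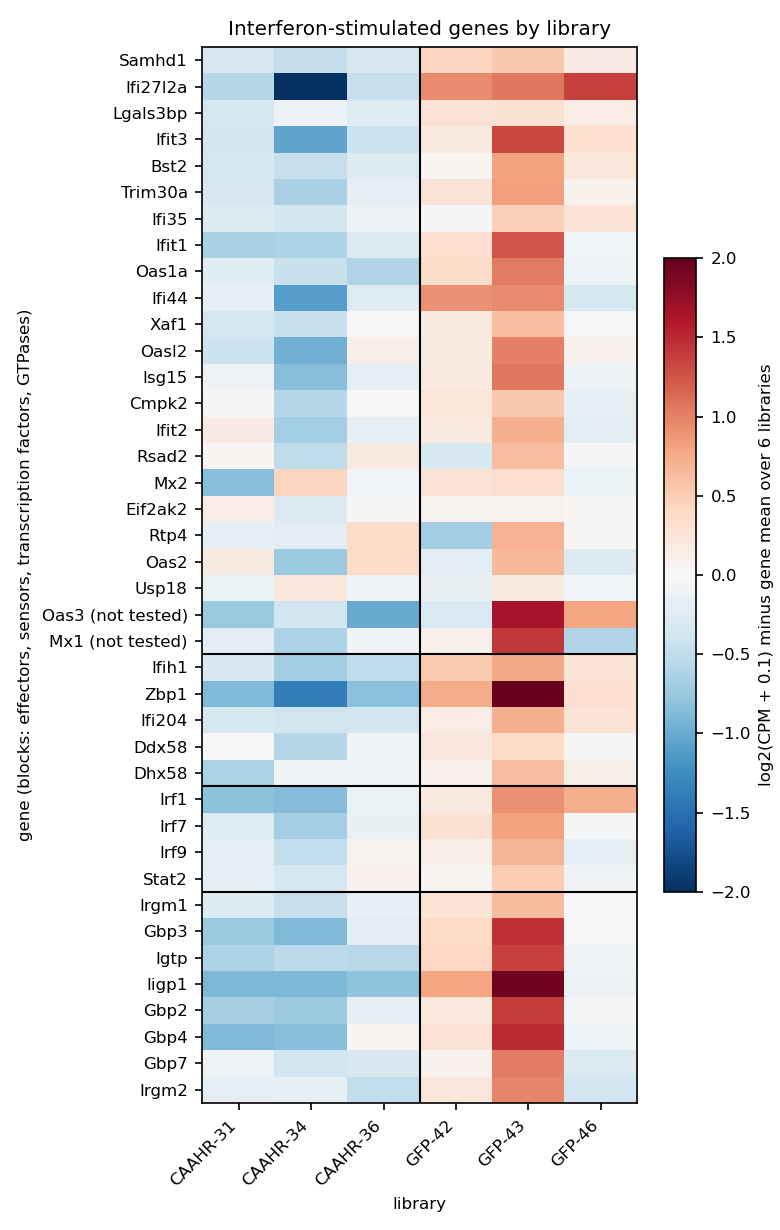
Level of each of the 40 members (rows) in each of the 6 libraries (columns) as log2(CPM + 0.1) minus the gene's mean over the 6 libraries, with red for higher and blue for lower; horizontal lines separate effectors, sensors, transcription factors and GTPases. The column of GFP replicate 43 is the reddest and that of CAAHR replicate 34 the bluest: these libraries were the highest and the lowest for 34 and 28 of the 38 tested members.

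Among the 23 antiviral effectors, 21 could be tested, 5 fell and 0 rose, against 4.57% of all genes tested that fell. The median log2 fold change of the effectors was -0.56. Samhd1, which hydrolyses the nucleotides that reverse transcription needs, had the highest mean of the members at 27.6 CPM, without correction for transcript length. Its level was 21.1, 19.0 and 21.2 CPM in CAAHR replicates 31, 34 and 36 and 35.7, 38.5 and 29.9 CPM in GFP replicates 42, 43 and 46. The groups did not overlap and each was tight, at 20.4 ± 1.27 against 34.7 ± 4.40 CPM (SD, n = 3 each). Samhd1 fell by 0.76 ± 0.11 on the log2 scale (SE; adjusted p = 0.00428, edgeR quasi-likelihood test). Ifi27l2a, a small interferon-induced membrane protein, was 1.25, 0.30 and 1.36 CPM in CAAHR muscles and 3.77, 4.06 and 5.10 CPM in GFP muscles. This gene had its highest value in GFP replicate 46 rather than 43, and it fell by 2.15 ± 0.45 on the log2 scale (adjusted p = 0.0304, edgeR).

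Lgals3bp, a secreted glycoprotein that binds galectins, was 7.95, 9.39 and 8.53 CPM in CAAHR muscles and 12.5, 12.6 and 11.3 CPM in GFP muscles. Its groups were separate and its change was the smallest of the 10, at -0.49 ± 0.11 (log2, SE; adjusted p = 0.0310, edgeR). Ifit3, which binds viral RNA together with Ifit1, was 1.62, 0.98 and 1.57 CPM against 2.49, 5.597 and 2.74 CPM, so that GFP replicate 43 lay far above the other GFP libraries. Ifit3 fell by 1.37 ± 0.35 on the log2 scale (adjusted p = 0.0486, edgeR), and 31.7% of its 100-base transcript windows occur also in Ifit3b. Reads that lie wholly in such stretches may not map uniquely and would then be left out of the counts. Bst2, or tetherin, which holds budding virus on the cell surface, was 3.97, 3.64 and 4.18 CPM against 5.24, 8.98 and 5.96 CPM and fell by 0.77 ± 0.20 on the log2 scale (adjusted p = 0.0492, edgeR). The calls of Ifi27l2a, Lgals3bp, Ifit3 and Bst2 each held in 1 of the 6 fits that leave out a library.

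Usp18, the protease that removes Isg15 from proteins and damps the type I receptor, stood at the other end of the effectors. It was 2.08, 2.69 and 2.15 CPM in CAAHR muscles and 2.05, 2.59 and 2.19 CPM in GFP muscles. The groups overlapped throughout, and the difference was 0.02 ± 0.19 (log2, SE; adjusted p = 0.967, edgeR). Rsad2 (viperin), Mx2, Eif2ak2 (the RNA-activated kinase PKR), Rtp4 and Oas2 had log2 fold changes between -0.30 and -0.09 with adjusted p of at least 0.691 (edgeR), and their groups overlapped. For Usp18, Oas2, Rtp4, Mx2, Eif2ak2 and Rsad2 the direction changed with the scaling, the test or the libraries kept.

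The effectors between these ends were lower without passing the test. Isg15, the ubiquitin-like protein coupled to other proteins, was 0.65, 0.35 and 0.61 CPM in CAAHR muscles and 0.83, 1.59 and 0.64 CPM in GFP muscles, and its log2 fold change was -0.91 ± 0.41 (adjusted p = 0.208, edgeR). Ifit1 (-1.20), Trim30a (-0.82) and Ifi35 (-0.51), with adjusted p between 0.0656 and 0.0757 (edgeR), had groups that did not overlap. Oas1a (-1.28), a synthase of the RNase L activator, and Xaf1 (-0.56) also showed no overlap, but 40.9% of the transcript windows of Oas1a occur also in Oas1g. Ifi44 (-1.31), Oasl2 (-0.89), Ifit2 (-0.47) and Cmpk2 (-0.43) overlapped between groups.

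Oas3 and Mx1 did not pass the filter on low counts. Oas3, another synthase of the RNase L activator, had 1, 3 and 0 counts in CAAHR muscles and 3, 22 and 13 counts in GFP muscles. Its CAAHR libraries lay at or under 3 counts, and GFP replicate 42 did not exceed that either, so no fold change is given. In alternatives whose filter let it in, Oas3 was called lower with no filter, without CAAHR replicate 34 and without GFP replicate 42. In the fits without a library it could pass the filter only through GFP replicates 43 and 46, where it was highest. These calls therefore add no support. Mx1, the GTPase whose gene is defective in many laboratory strains including C57BL6J, had 4, 2 and 6 counts against 6, 19 and 2 counts, with its highest count in GFP replicate 43 and overlap between the groups.

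The sensors of viral nucleic acid were separate between the groups. For 5 of 5 sensors every CAAHR library lay below every GFP library, against 14.9% of all genes tested. Of these sensors 3 of 5 fell, against 4.57% of all genes tested. Zbp1 is among them, and as it was tested through the GFP libraries alone, it adds no support to either count. The median log2 fold change of the sensors was -0.80. Ifih1 (MDA5), which senses long double-stranded RNA, was 2.53, 1.92 and 2.20 CPM in CAAHR muscles and 4.64, 5.43 and 3.81 CPM in GFP muscles. It fell by 1.06 ± 0.19 on the log2 scale (SE; adjusted p = 0.0104, edgeR quasi-likelihood test), and its range over all alternatives was -1.18 to -0.93. Zbp1, which binds left-handed nucleic acid and starts necroptosis, had the largest change of the members tested. Its level was 0.14, 0.07 and 0.15 CPM against 0.64, 1.71 and 0.45 CPM, and it fell by 2.94 ± 0.59 on the log2 scale (adjusted p = 0.0186, edgeR). Zbp1 passed the filter on low counts through the GFP libraries alone, and its call was lost without CAAHR replicate 31 or 36 and with limma-voom. With at least 10 counts required in every library it was not tested.

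Ifi204, a DNA-binding protein of the interferon-inducible p200 family, was 1.601, 1.54 and 1.59 CPM in CAAHR muscles and 2.30, 3.44 and 2.51 CPM in GFP muscles. The 3 CAAHR values were nearly the same, and the gene fell by 0.80 ± 0.21 on the log2 scale (adjusted p = 0.0483, edgeR), a call that held in 0 of the 6 fits without a library. It shares 10.7% of its transcript windows with its relatives Ifi211, Mndal and Ifi207. Dhx58 (LGP2), which tunes the RNA helicase sensors, was 0.38, 0.59 and 0.59 CPM against 0.68, 1.03 and 0.70 CPM, a difference of -0.62 ± 0.33 (adjusted p = 0.288, edgeR). Ddx58 (RIG-I), the sensor of RNA with a triphosphate end, differed by -0.43 ± 0.20 (adjusted p = 0.236, edgeR).

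All 4 transcription factors had fitted changes below 0, and Irf1 passed the test. Irf1, which activates both branches and has the GAS core shown above, was 3.46, 3.36 and 5.64 CPM in CAAHR muscles and 7.02, 11.8 and 10.3 CPM in GFP muscles. It fell by 1.22 ± 0.25 on the log2 scale (adjusted p = 0.0251, edgeR quasi-likelihood test), and the call was lost without CAAHR replicate 31, GFP replicate 43 or GFP replicate 46. Irf7, the amplifier of type I interferon transcription, was 1.502, 1.10 and 1.64 CPM against 2.26, 3.27 and 1.77 CPM, with a difference of -0.78 ± 0.27 (adjusted p = 0.114, edgeR). Irf9 and Stat2, which belong to the ISRE-binding complex, were closer together between groups. Irf9 was 4.27, 3.46 and 5.15 CPM against 5.36, 7.93 and 4.30 CPM (log2 fold change -0.44 ± 0.24, adjusted p = 0.298, edgeR). Stat2 was 5.00, 4.44 and 6.08 CPM against 5.94, 8.22 and 5.32 CPM (log2 fold change -0.32 ± 0.19, adjusted p = 0.347, edgeR). Both overlapped between the groups.

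**Figure D3:**
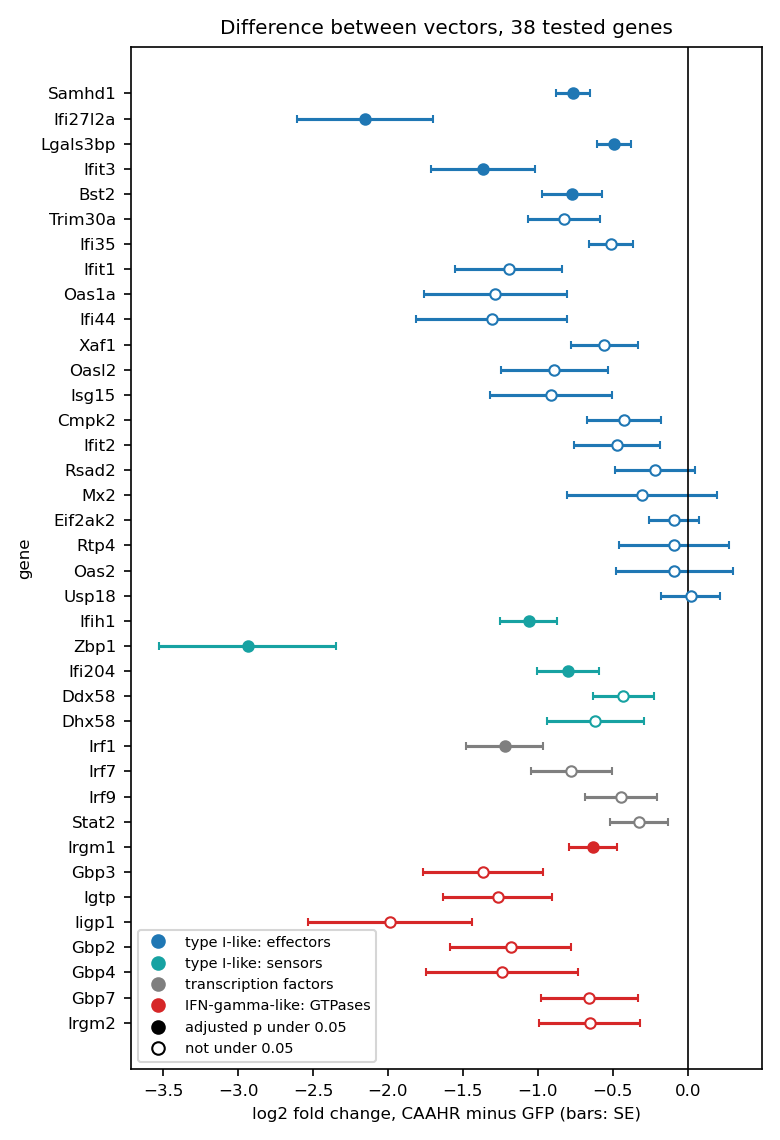
Log2 fold change (CAAHR minus GFP, horizontal axis; bars are SE) of the 38 tested members, coloured by role; filled points have an adjusted p under 0.05 in edgeR's quasi-likelihood test. All points but Usp18 lie left of 0, and the 10 filled points reach from -2.94 (Zbp1) to -0.49 (Lgals3bp).

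The 8 GTPases, which coat and break the vacuoles of intracellular microbes, spread widely among the control muscles. All 8 of 8 had fitted log2 fold changes below 0, from -1.99 to -0.63, and 1 of 8 fell (12.5%, against 4.57% of all genes tested). Their median was -1.21, beside -0.69 for the 26 type I-like genes tested, of which 8 fell and 0 rose. That gene was Irgm1, a regulator of the other immunity-related GTPases, at 10.7, 9.31 and 11.5 CPM in CAAHR muscles and 15.6, 20.1 and 13.0 CPM in GFP muscles. Irgm1 fell by 0.63 ± 0.16 on the log2 scale (adjusted p = 0.0470, edgeR quasi-likelihood test). It had the smallest fitted change of the 8 and also the smallest SE, and its call held in 1 of the 6 fits without a library.

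Iigp1, an effector that disrupts vacuole membranes, was 5.32, 5.30 and 5.69 CPM in CAAHR muscles and 17.4, 38.2 and 9.19 CPM in GFP muscles. The CAAHR libraries were nearly alike at 5.44 ± 0.22 CPM (SD, n = 3), whereas the GFP libraries spread over 21.6 ± 14.97 CPM. Its log2 fold change was -1.99 ± 0.55 with an adjusted p of 0.103 (edgeR). Igtp, a regulatory GTPase, repeated this shape with 9.13, 9.74 and 9.58 CPM against 18.9, 36.5 and 13.3 CPM (-1.27 ± 0.37, adjusted p = 0.0978, edgeR). Both Iigp1 and Igtp passed the test once GFP replicate 43 or GFP replicate 46 was left out.

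Gbp3, a guanylate-binding protein, was 2.11, 1.91 and 3.10 CPM in CAAHR muscles and 4.81, 10.1 and 3.59 CPM in GFP muscles, without overlap (-1.36 ± 0.40, adjusted p = 0.0865, edgeR). Gbp2 (-1.18) did not overlap either, and Gbp4 (-1.24) and Gbp7 (-0.66) did. Irgm2 was second to Samhd1 in mean level with 21.0 CPM, and its libraries were at 17.3, 17.6 and 14.0 CPM against 22.9, 38.9 and 15.1 CPM. GFP replicate 46 lay inside the CAAHR range, and the difference was -0.65 ± 0.34 (adjusted p = 0.307, edgeR). The annotated exons of Igtp and Irgm2 overlap by 162 bases, so that 5.16% and 3.01% of their transcript windows are common to both, and 10% of those of Gbp7 occur also in Gbp3 or Gm43802.

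**Figure D4:**
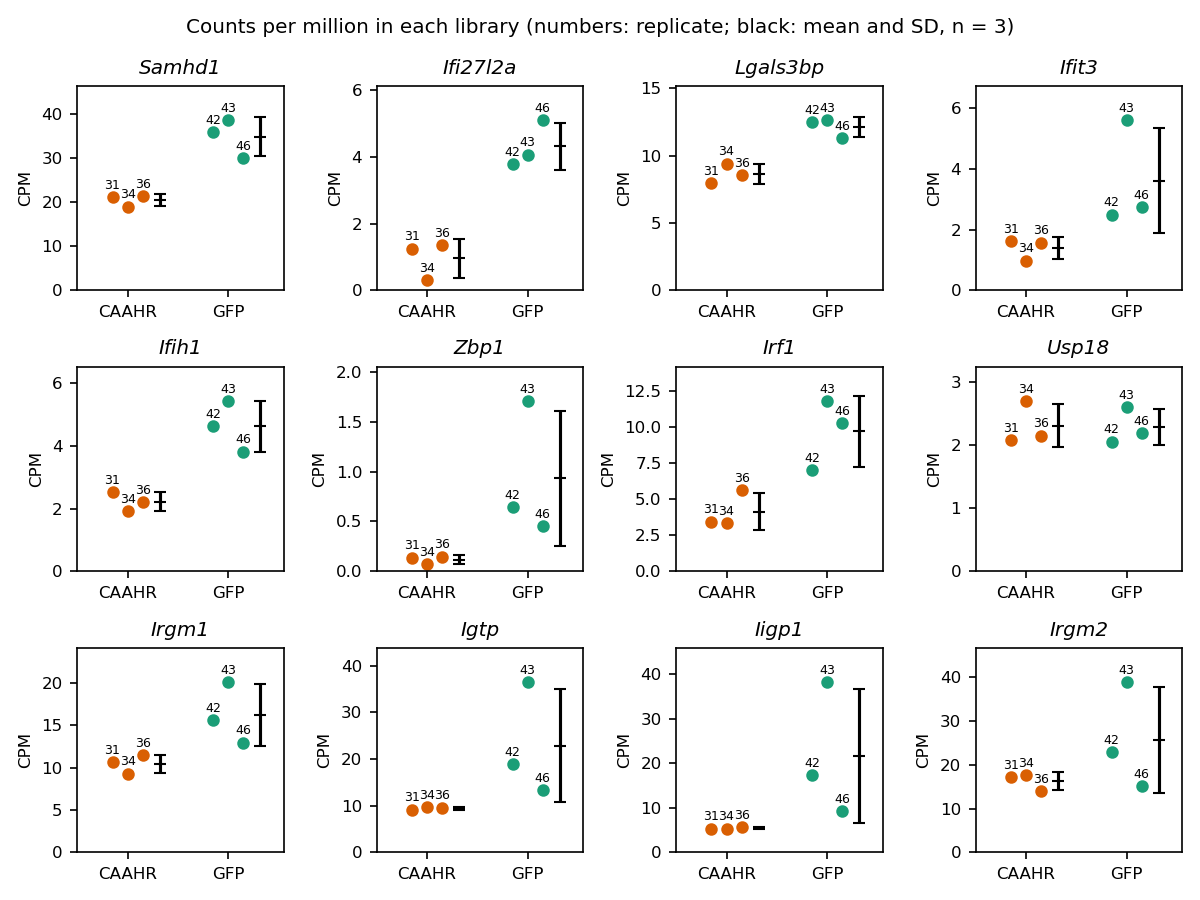
CPM (vertical axes, from 0) of 12 members in each library, with the replicate number beside each point and the mean ± SD (n = 3) in black. In Igtp and Iigp1 the CAAHR points nearly coincide while GFP replicate 43 stands at 36.5 and 38.2 CPM; the points of Usp18 overlap between the groups.

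Both branches were also followed library by library. The summed level of the type I-like genes was 76.0, 65.6 and 79.5 CPM in CAAHR replicates 31, 34 and 36 and 109, 142 and 102 CPM in GFP replicates 42, 43 and 46. The GTPase sum was 58.5, 56.5 and 61.6 CPM against 102, 193 and 71.8 CPM. In neither sum did the groups overlap. Gene by gene, CAAHR lay wholly below GFP for 15 of 26 type I-like genes and 5 of 8 GTPases, against 14.9% of all genes. On the log2 scale the range over the 3 GFP libraries exceeded the range over the 3 CAAHR libraries for 8 of 8 GTPases and for 17 of 26 type I-like genes (65.4%), against 43.3% of all genes tested. The median range of the GTPases was 0.31 in CAAHR and 1.45 in GFP muscles, and that of the type I-like genes was 0.58 and 0.73. Without GFP replicate 43 the median log2 fold change of the GTPases was -0.61 and that of the type I-like genes -0.46. The difference between the branches was not tested, because the genes were grouped with results of these data known.

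The ISRE core occurred both among members that fell and among members that did not pass the test. The core was present in 4 of the 7 called members with a promoter entry, which were Ifih1, Ifit3, Bst2 and Irgm1, and in 13 of 21 members that were not called. The GAS core was present in 3 of 7 and 7 of 21. Ifi27l2a, Zbp1 and Ifi204 were called too but had no entry. With so few genes these shares cannot show whether a core goes with the change, which was not tested. Rsad2 and Eif2ak2, which hold the ISRE core, had fitted changes of -0.22 ± 0.27 and -0.09 ± 0.16 (log2, SE).

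Upstream of the members, interferon transcripts were at or near 0 counts in whole muscle. None of the 21 interferon genes listed could be tested. Ifnb1 had 0 counts in all 6 libraries, which allows up to 0.0721 CPM in the shallowest library (3 counts). Ifng had 0 counts in each CAAHR library and 2, 6 and 1 counts in GFP replicates 42, 43 and 46, so its reads were limited to the control muscles at counts near that floor. Of the other ligands, Ifnab had 1 count in CAAHR replicate 36 and the rest had 0.

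Of the 6 receptor genes, 5 could be tested, 1 fell and 0 rose, against 4.57% of all genes tested that fell. Ifngr2, the signalling chain of the interferon-gamma receptor, was 42.02, 38.8 and 36.3 CPM in CAAHR muscles and 69.4, 62.7 and 65.1 CPM in GFP muscles. The groups were far apart against a spread of 2.89 and 3.42 CPM (SD, n = 3), and GFP replicate 43 was the lowest of its group. Ifngr2 fell by 0.75 ± 0.09 on the log2 scale (adjusted p = 0.00181, edgeR quasi-likelihood test). The ligand-binding chain Ifngr1 was 26.3, 18.6 and 26.8 CPM against 19.1, 26.1 and 22.1 CPM (0.10 ± 0.16, adjusted p = 0.785, edgeR). Of the type I receptor chains, Ifnar1 differed by 0.02 ± 0.13 and Ifnar2 by -0.22 ± 0.19 (log2, SE), with adjusted p of 0.961 and 0.537 (edgeR).

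None of the 9 signalling genes tested passed the adjusted threshold, although 3 had an unadjusted p under 0.05, of which 2 were lower. Of all genes tested, 23.9% had an unadjusted p under 0.05 (edgeR). Jak1, the kinase bound to both receptors, differed by -0.32 ± 0.11 (adjusted p = 0.113, edgeR). The feedback inhibitors had fitted values on opposite sides of 0, at 1.64 ± 0.63 for Socs1 and -1.70 ± 0.68 for Socs3 (log2, SE; adjusted p = 0.172 and 0.218, edgeR).

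Of 15 tested genes that act between sensors and interferon transcription or are regulators listed with them, 1 fell and 0 rose. This share of 6.67% lay near the 4.57% of all genes tested that fell. Nlrc5, the transactivator of MHC class I genes, was 0.57, 0.37 and 0.87 CPM in CAAHR muscles and 2.36, 4.25 and 1.62 CPM in GFP muscles and fell by 2.17 ± 0.42 on the log2 scale (adjusted p = 0.0192, edgeR). Tmem173 (STING), the adaptor of DNA sensing, was 0.99, 1.19 and 1.67 CPM against 2.46, 2.33 and 2.21 CPM (-0.86 ± 0.23, adjusted p = 0.0554, edgeR). Irf3, the factor that first switches on type I interferon, differed by 0.10 ± 0.12 (adjusted p = 0.658, edgeR).

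Further interferon-induced genes that are not among the 40 were counted in the same fit. Of 34 tested antiviral genes, 5 fell and 0 rose, against 4.57% of all genes tested that fell, and 29 did not pass the test. Their median log2 fold change was -0.45, and 5 of the 34 had fitted changes above 0. Ifit3b, the close relative of Ifit3, was 2.10, 1.91 and 1.89 CPM in CAAHR muscles and 4.91, 5.98 and 5.34 CPM in GFP muscles and fell by 1.46 ± 0.16 on the log2 scale (adjusted p = 0.00100, edgeR). Slfn2 (-1.64), Slfn1 (-2.18), Nmi (-0.73) and Ifitm3 (-0.60), which blocks virus entry from endosomes, were the others (adjusted p between 0.00641 and 0.0412, edgeR), of which Slfn1 passed the filter on low counts through the GFP libraries alone. Of 11 further GTPases tested, 2 fell and 0 rose, with a median of -1.06, and 10 of 11 were highest in GFP replicate 43. Ifi47 fell by 1.35 ± 0.34 on the log2 scale (adjusted p = 0.0417, edgeR). Gm12250 had 2, 4 and 6 counts in CAAHR muscles and 31, 77 and 36 counts in GFP muscles (adjusted p = 0.00491, edgeR), and it passed the filter through the GFP libraries alone.

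Pan-leukocyte markers shared with the members a lower level in CAAHR muscles and a peak in GFP replicate 43 (5 of 5). They did not share the low point of the members in CAAHR replicate 34. That library was the lowest for 1 of 5 pan-leukocyte, 0 of 7 B and plasma cell and 0 of 3 T and NK cell markers tested. Other leukocyte lists did share it, as replicate 34 was the lowest for 10 of 10 macrophage, 4 of 5 dendritic cell and 3 of 6 neutrophil markers tested. All 5 of 5 pan-leukocyte markers fell, with a median log2 fold change of -2.04, against 4.57% of all genes tested that fell. The sum of these markers was 5.75 to 6.18 CPM in CAAHR muscles and 13.3 to 37.7 CPM in GFP muscles. Of the 10 macrophage markers tested, 0 fell at an adjusted p under 0.05 (edgeR) and 7 were lower at an unadjusted p under 0.05, with sums of 28.9 to 49.5 CPM against 57.6 to 122 CPM. The sums of B cell and plasma cell markers were 9.61 to 19.3 CPM against 127 to 432 CPM, with 4 of 7 fallen, although 4 of 7, among them the called Cd79a and Cd79b, passed the filter on low counts through the GFP libraries alone. T and NK cell markers reached 1.02 to 1.71 CPM against 2.59 to 9.20 CPM. The 1 of 3 that fell, Cd8b1, had 2, 3 and 1 counts in CAAHR muscles and passed the filter through the GFP libraries alone, and Ncr1 was at 0 in all libraries but GFP replicate 46, where it had 1 count. Dendritic cell markers summed to 1.24 to 1.76 CPM against 2.80 to 5.43 CPM, and the 1 of 5 that fell, Itgax, also passed the filter through the GFP libraries alone.

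Not every cell type followed this order. Of 6 neutrophil markers tested 5 fell (3 of 6 passed the filter through the GFP libraries alone), but 0 of 6 were highest in GFP replicate 43, where their sum was 10.1 CPM against 17.5 CPM in replicate 46. The endothelial markers (0 of 8 called) summed to 210 to 294 CPM in CAAHR and 225 to 274 CPM in GFP muscles, and the fibroblast markers (0 of 6 called) to 352 to 714 CPM against 531 to 664 CPM. CAAHR replicate 34 was the lowest library for 10 of 10 macrophage, 5 of 8 endothelial and 5 of 6 fibroblast markers. Fast-fibre markers fell in 4 of 8 cases. Slow-fibre markers had a median log2 fold change of 2.62. Of these, 7 of 8 were higher at an unadjusted p under 0.05, although 0 of 8 passed the adjusted threshold (edgeR). In whole muscle, fewer cells of a type and less RNA per cell cannot be told apart, and the part of these cell types in the lower interferon-stimulated genes was not tested.

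**Figure D5:**
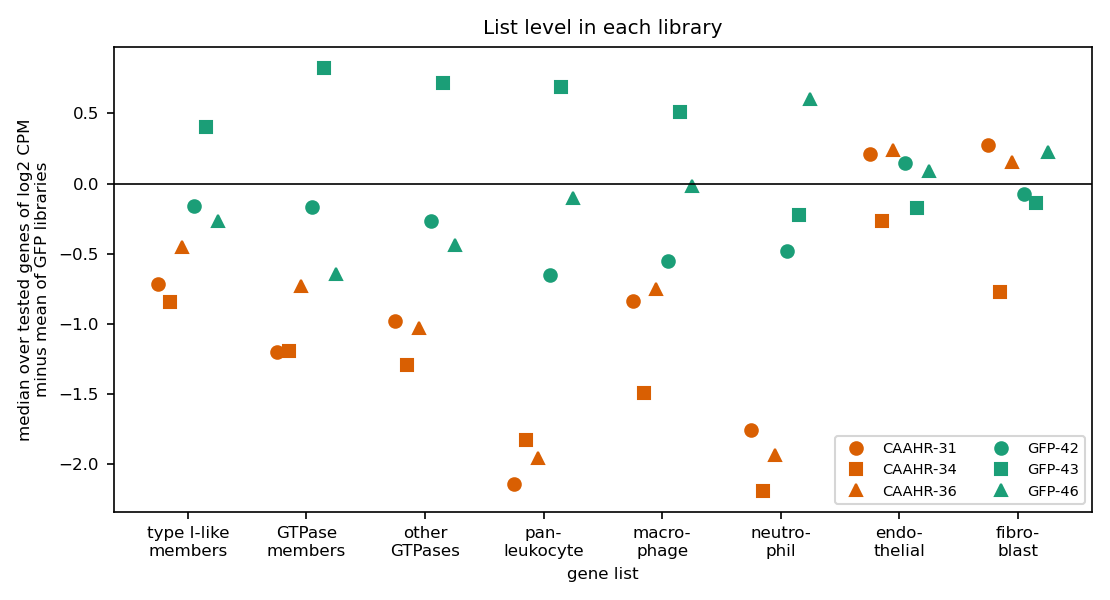
Median over the tested genes of each list (horizontal axis) of log2 CPM minus the mean of the GFP libraries (vertical axis), 1 point per library. In both member groups the highest point is GFP replicate 43 (0.41 for type I-like genes, 0.82 for GTPases), as it is for pan-leukocyte (0.69) and macrophage markers, whereas the neutrophil markers were highest in GFP replicate 46.

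Compared per kilobase of exon, so that long and short transcripts can be set side by side, the members covered a wide range of mean levels over the 6 libraries. Igtp led with 8.01 CPM per kb, followed by Bst2 with 5.90, Ifi27l2a with 5.70, Irgm2 with 5.69 and Ifi35 with 5.18 CPM per kb. Oas3, Mx1 and Mx2 were at the bottom with 0.0214, 0.0366 and 0.0760 CPM per kb. The order differed between the groups. Igtp led in both, but Ifi27l2a was second in GFP muscles with 9.30 CPM per kb and stood below Irgm2, Bst2, Ifi35, Lgals3bp and Samhd1 in CAAHR muscles with 2.09 CPM per kb.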

How the data were processed

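RNA was sequenced from 6 gastrocnemius muscles (3 per vector). The authors selected poly(A) RNA, trimmed paired reads with Trimmomatic 0.36, aligned them with STAR 2.5.2b and counted unique reads in exons, and they deposited raw whole-number counts per gene. Whether strand was used is not given in the sources used here. Rows without a symbol (174, 0.0154% of counts) kept their place as genes. CPM are scaled by TMM factors. Genes were tested after filterByExpr (minimum count 10) with edgeR 4.0.16 in R 4.3.3 (robust quasi-likelihood F test, Benjamini-Hochberg adjustment over all 15847 genes, threshold 0.05). The code was tested on simulated data. Alternatives were DESeq2 size factors, upper-quartile and library-size scaling, other filters, DESeq2 1.42.0, limma 3.58.1 (voom), no robust estimation, and leaving out each library. Members and lists were chosen with earlier results of these data known. Values per library are given for the 3 smallest and the largest p in each role and for the 5 members of highest mean CPM. Pathway genes that were called or named in the plan are given with values per library or with the fold change only. Ifit3, Bst2, Isg15, Ddx58, Tmem173, Jak1, Socs1 and Socs3 were added, in either form, after their values were seen. Annotation was GENCODE M21 (GRCm38), and promoters came from RefSeq (GRCm38.p6). A signalling gene named in the plan is not reported here.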

Additional observations from a re-analysis of the deposited data

How the results depend on the processing

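No paired analysis was possible because no replicate number occurs in both vectors' libraries. Members called numbered 10, and 6 with library size only, 19 with no filter, 17 with the DESeq2 test and 6 with limma-voom. For type I-like genes (8) these counts were 5 with library size only, 14 with no filter and 4 with limma-voom. GTPases (1 called) gave 0 with library size only, 3 with no filter, 5 with the DESeq2 test and 2 without robust estimation. Other pathway genes (9) gave 26 with no filter and 17 with the DESeq2 test, and all genes (1205) gave 2470 and 1923. Leaving out each library gave 2 to 8 members, 2 to 7 type I-like genes, 0 to 3 GTPases, 5 to 9 other pathway genes and 530 to 1727 genes in all, and medians of -0.80 to -0.46 for type I-like genes and -1.48 to -0.61 for GTPases. The direction of the log2 fold change turned for Usp18 with upper quartile (-0.052) and limma-voom (-0.038), for Oas2 with library size only (0.0041) and for Rtp4 with limma-voom (0.070). Leaving out a library, it turned within the ranges -0.11 to 0.12 for Usp18, -0.36 to 0.31 for Oas2, -0.39 to 0.34 for Rtp4, -0.79 to 0.045 for Mx2, -0.20 to 0.010 for Eif2ak2 and -0.40 to 0.094 for Rsad2. The cause was not tested. Of 666 values for single genes, 555 kept direction and side of the threshold, which includes uncalled genes that stayed uncalled. Among the called members, Samhd1 and Ifih1 kept their call in 14 of 14 alternatives, and Bst2 and Ifi204 in 6 of 14. The ISRE core shortened by 1 base was found in 19 members rather than 18. With 3 libraries per group and members under 1 CPM, counting error and spread limit the precision.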
